A study of Mus musculus with 17 samples.

Results

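Bulk RNA of bone marrow was sequenced in 17 libraries that were deposited both singly and added together into 6 sums, and the spread among the libraries of a sum was compared with the spread among the sums. The headers of the summed columns name the libraries in each. Control sums hold libraries 1 to 3, 7 to 9, and 14 and 15, and Mt1ko sums hold libraries 4 to 6, 10 to 12, and 16 to 18. The genes compared are the 8197, of 56305 listed, with a mean of 10 or more on the counts-per-million (CPM) scale over the 17 libraries. All animals were C57BL/6 mice with acute myeloid leukaemia of the genotype Dnmt3aR878H/+;Npm1cA/+, which the 8 control libraries share with the 9 Mt1ko libraries. In the Mt1ko libraries Mt1 had also been targeted by CRISPR-Cas9, which the labels describe as a knockdown. Each library carries the words technical replicate in its label, so p-values measure only the spread between libraries. Whether libraries of a sum share an animal, an RNA preparation or a pool, how the alleles were induced, and how many mice of what age there were, is not stated in the labels. Library 13 was not analysed here.

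Metallothioneins such as Mt1 and Mt2 are small cysteine-rich proteins that bind zinc and copper. In a repeat library from the same RNA, a gene with many molecules in the input usually returns a similar level. A gene with few molecules of input RNA can return very different ones. Between separate samples of cells, a gene carried by a few cells can differ as well. Marrow holds rare cells with very abundant transcripts of their own, mast cells among them, whose granules are packed with proteases. Gene copies with nearly the same sequence are another background case, since short reads from them can be assigned to either copy.

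The targeted gene, Mt1, was at 347.5, 368.1 and 370.7 CPM in control libraries 1 to 3, at 458.9, 463.5 and 471.3 in 7 to 9, and at 399.2 and 352.4 in 14 and 15. In the libraries labelled Mt1ko it was at 82.7, 86.2 and 326.2 CPM in 4 to 6, at 41.8, 55.8 and 76.0 in 10 to 12, and at 87.2, 75.9 and 86.9 in 16 to 18. The library labelled Mt1ko 6 lay near the controls, and its own mates lay with the other Mt1ko libraries. Libraries held 27124722 to 38645072 counts. Of other facts that touch the results, the libraries of sum 10-12 detected 11548 to 13174 genes, against 14823 to 17739 in the other 14. The share of counts in the mitochondrial ribosomal RNAs was 21.9% to 30.2% in those 3 libraries and 4.58% to 11.2% in the rest. Lyz2, lysozyme of monocytes and neutrophils, was abundant in all 17 libraries, at 2139 to 6387 CPM, and none of the 21 B-cell and plasma-cell genes listed reached a mean of 10 CPM. In bulk RNA, fewer cells of a type and less RNA per cell cannot be told apart.

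On the log2(CPM + 1) scale, the median gene had a standard deviation (SD) of 0.32 among libraries of a sum, pooled over the 6 sums, and of 0.28 among the 6 sum means. For 80% of the genes the SD within sums lay between 0.16 and 0.71. Counting error alone would give a median SD of 0.04, and the observed SD within sums was a median of 8.62 times that. The share of a gene's variance that lay among sums was 28.9% at the median. It was 0 in 2089 genes (25.5%) and above 50% in 2622 genes (32.0%). The difference between control and Mt1ko, which holds 1 of the 5 degrees of freedom among sums, took 11.3% of the sum of squares among sums at the median. Without sum 10-12, the median SD was 0.22 within sums and 0.17 among sums, over 8231 genes, and 1933 genes (23.5%) had more than 50% of their variance among sums.

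The spread was uneven over the 6 sums. The median gene's SD was 0.17 in sum 1-3, 0.24 in 7-9 and 0.18 in 14-15 of the controls, and 0.14 in 4-6, 0.52 in 10-12 and 0.17 in 16-18 of the Mt1ko sums. An SD of 1 or more was reached by 1596 genes (19.5%) in sum 10-12 and by 30 to 172 genes in the other 5. Sum 10-12 had the largest SD of the 6 for 5673 genes (69.2%). The mean of the 3 control medians was 0.198 ± 0.0378 (SD, n = 3) and that of the 3 Mt1ko medians 0.275 ± 0.213 (SD, n = 3). That difference did not pass an exact two-sided permutation test (p = 1.0), for which 3 sums against 3 allow no p below 0.1. Without sum 10-12 the direction turned, and the control medians were higher by 0.0449.

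Single libraries showed the same unevenness. On the log2(CPM + 1) scale, set against the mean of the other libraries of its sum, a library differed 2-fold or more in 47 genes (0.573%) for libraries 4 and 5 and in 68 genes (0.83%) for the library labelled Mt1ko 6. In sum 10-12 the counts were 1989 genes (24.3%) for library 10, 1996 (24.4%) for library 11 and 2138 (26.1%) for library 12. Library 11 was mostly above its mates, with 1328 genes higher and 668 lower, and library 12 mostly below, with 752 higher and 1386 lower. Library 9, with 587 genes (7.16%), came next, and it was split between 297 genes higher and 290 lower. Of the others, library 1 differed in 79 genes (0.964%), library 2 in 215 (2.62%), library 3 in 203 (2.48%), library 7 in 231 (2.82%), library 8 in 251 (3.06%), library 16 in 105 (1.28%), library 17 in 177 (2.16%) and library 18 in 75 (0.915%). Libraries 14 and 15 have only each other to be set against, and differed in 325 genes (3.96%).

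**Figure D1:**
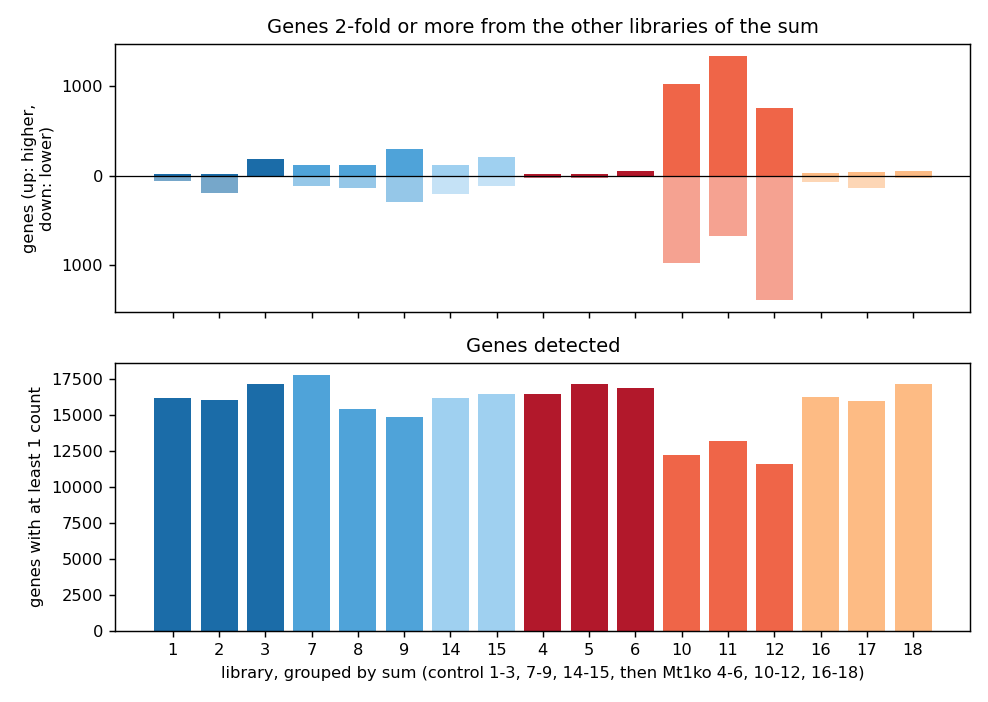
Each bar is 1 library, grouped by sum, with control sums in blue and Mt1ko sums in red and orange. The upper panel gives the number of the 8197 genes that lay 2-fold or more above (up) or below (down, paler) the other libraries of the sum, and the lower panel the number of genes with at least 1 count. Libraries 10, 11 and 12 have the most departures and the fewest genes detected.

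The libraries of a sum were not always each other's nearest relatives. The distance between a pair of libraries was taken as the SD, over genes, of their difference in log2(CPM + 1). With sum 10-12 left out, it had a median of 0.412 over the 13 pairs within sums. It was 0.565 over 30 pairs of the same condition in different sums, and 0.456 over 48 pairs of different conditions. In sum 10-12 the 3 distances were 1.13 to 1.24. Only 7 of the 17 libraries had a library of their own sum as the nearest one. The ranges overlapped, at 0.326 to 0.672 within sums and 0.341 to 0.802 between conditions.

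Spread fell with level, in all 6 sums from 10 to 300 CPM. Genes with a mean of 10 to 30 CPM had a median SD within sums of 0.49, those from 300 to 1000 CPM one of 0.15. In sum 10-12 the corresponding values were 0.86 and 0.20, and in sum 4-6 they were 0.21 and 0.07. The share of genes with an SD of 1 or more in sum 10-12 was 39.6% from 10 to 30 CPM, 11.3% from 30 to 100 CPM and 0.789% from 100 to 300 CPM, and above that it was 0. The variance among sums moved the other way, from 12.7% of the total at 10 to 30 CPM to 76.4% at 1000 CPM or more.

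**Figure D2:**
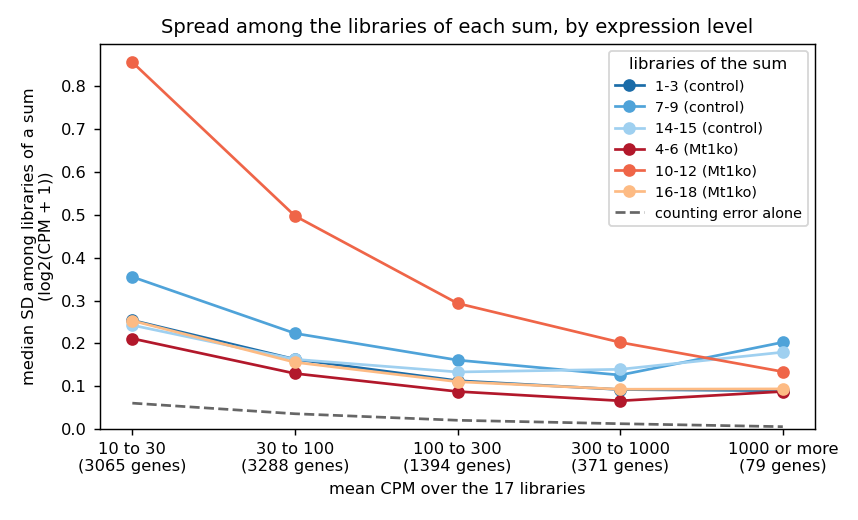
The median SD among the libraries of each sum, in log2(CPM + 1), is plotted for 5 classes of mean CPM over the 17 libraries, and the dashed line is what counting error alone would give. The line of sum 10-12 lies above the other 5 from 10 to 1000 CPM, and all 6 fall from the lowest levels to 300 CPM.

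An SD within sums of 1 or more on the log2 scale was found in 262 genes (3.20%). In 206 of them sum 10-12 had the largest SD, and the number was 170, 158 and 129 without library 10, 11 or 12. When the same genes were scored without sum 10-12, 75 reached an SD of 1. They were chosen by this SD, so their values are a description. The 75 were sorted into 3 classes. In 35 the deviations of libraries from the mean of their sum followed those of Cpa3, with a correlation of 0.9 or more over the 14 libraries of the other 5 sums. All correlations with Cpa3 given here are of such deviations in log2(CPM + 1), where libraries 14 and 15 mirror each other by construction. In 28 at least 50% of the gene's sequence was shared with another gene, and 12 had neither property. Over all 8197 genes, 55 (0.671%) followed Cpa3 that closely. These correlations share libraries and depth, and the pair 14 and 15 weighs heavily in them. Without that pair, 31 of the 35 kept a correlation of 0.9 or more over 12 libraries, and 13 of the 35 had the same order of libraries as Cpa3 in all 5 sums.

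Cpa3, carboxypeptidase A3 of mast cell granules, was at 7.87, 37.0 and 157.6 CPM in libraries 1 to 3, at 6.69, 177.5 and 617.9 in 7 to 9, and at 0.209 and 394.2 in 14 and 15. It was at 81.8, 83.2 and 209.3 CPM in 4 to 6, at 748.9, 1990 and 1184 in 10 to 12, and at 13.6, 86.1 and 43.2 in 16 to 18. Library 14 held 7 counts of it, a level 1888-fold below that of its mate. The control sums overlapped one another, and in sum 10-12 all 3 libraries were above the other 14. The SD was 2.53 within sums and 2.07 among them. The differences among sums did not pass the edgeR quasi-likelihood test (Benjamini-Hochberg adjusted p = 0.123).

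Of 20 listed mast cell and basophil genes, Cpa3 among them, 11 reached a mean of 10 CPM, and 4 of the 11, Cpa3 itself counted, had the library order of Cpa3 in all of the 5 sums other than 10-12. Of the 11, 10 had an SD within sums of 1 or more, with a median of 1.67 over the 11, against 0.32 for all genes. Tpsb2, a tryptase, was at 1.97 CPM in library 14 and 449.3 in 15, and at 10.8 in library 7 and 708.8 in 9. Cma1, a chymase, was at 0.716 and 397.2 CPM in 14 and 15. Kit, the stem cell factor receptor on which mast cells depend, was at 0.865 and 88.7 CPM there, and at 2.54, 62.1 and 140.4 in 7 to 9. Fcer1a and Ms4a2 encode chains of the high-affinity receptor for IgE. Fcer1a was at 0 CPM in library 14 and 59.0 in 15, and Ms4a2 at 2.51 and 47.9. Gata2, a transcription factor of mast cells and of stem and progenitor cells, was at 0.328 and 37.2 CPM. All 11 were lower in library 14 than in 15, as were 48.7% of all genes. Srgn, the core protein of the granule proteoglycan, which most myeloid cells also make, was the 1 exception to the wide spread, with an SD of 0.20.

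Of the 11, 3 passed the test among sums, against 831 (10.1%) of all 8197 genes. The 3 were Cd200r3 (edgeR adjusted p = 0.00432), Ms4a2 (adjusted p = 0.0212) and Srgn (adjusted p = 0.000498). Without sum 10-12 only Srgn did (edgeR adjusted p = 0.000177). Among the 3 Mt1ko sums 6 of the 11 passed the same test, against 11.9% of all 8197 genes, and among the 3 control sums 1 did, against 3.7%. With sum 10-12 left out, 0 genes were called among the Mt1ko sums. As a list, the 11 departed from the other libraries of the sum by a median of 2.16 on the log2 scale in library 3, of 3.07 in library 9, of -3.94 in library 7 and of -1.88 in library 16. Library 15 was 4.85 above library 14.

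Genes outside that list followed Cpa3 as well. Il1rl1, the receptor for interleukin 33, was at 1.16 CPM in library 14 and 171.6 in 15, and at 5.74, 95.1 and 337.6 in 7 to 9. Tph1, the first enzyme of serotonin synthesis outside neurons, was at 0.0298 and 173.7 CPM in 14 and 15. Scin, an actin-severing protein, was at 0 and 80.0 CPM. Cyp11a1, which starts steroid synthesis from cholesterol, was at 0.358 and 71.1 CPM. Gzmb, a granzyme usually taken as a marker of cytotoxic lymphocytes, was at 0 and 108.8 CPM and followed Cpa3 with a correlation of 0.98. Among the 24 T-cell and NK-cell genes listed, 20 had a mean under 1 CPM, and Cd4, Trbc2, Prf1 and Gzma were at 0 in all 17 libraries. Gzmb and Lat, a signalling adaptor, followed Cpa3, while Cd28 and Il7r, with SDs within sums of 0.42 and 0.36, did not vary so widely. Cd34 and Itga2b, listed for progenitors and for megakaryocytes, were also among the 35, with SDs within sums of 1.18 and 1.26.

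Xist, the noncoding RNA of the inactive X chromosome, was the most variable of the 12 genes in neither class. It was at 2.71, 0.655 and 21.4 CPM in libraries 1 to 3, at 1.07, 21.8 and 116.6 in 7 to 9, and at 1.52 and 57.9 in 14 and 15. It was at 8.09, 4.90 and 28.8 CPM in 4 to 6, at 139.1, 305.1 and 88.7 in 10 to 12, and at 0, 14.7 and 9.60 in 16 to 18. Low and high libraries stood side by side in all sums but 10-12. Over the 14 other libraries its deviations from the sum means had a correlation of 0.88 with those of Cpa3. The SD was 2.10 within sums and 1.80 among them (edgeR adjusted p = 0.159). Of the 9 sex-linked genes listed, 8 had a mean under 1 CPM, and Ddx3y, Eif2s3y, Sry, Usp9y, Zfy1 and Zfy2, which are Y-linked, were at 0 in all 17 libraries. The list, Xist included, added up to 24.55 CPM in library 8 and to 1.25 in library 16. Listed genes other than Xist and those named were therefore not at 0 there, so the zeros cover only the Y-linked genes named. The part of mast cell transcripts in the level of Xist was not tested.

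**Figure D3:**
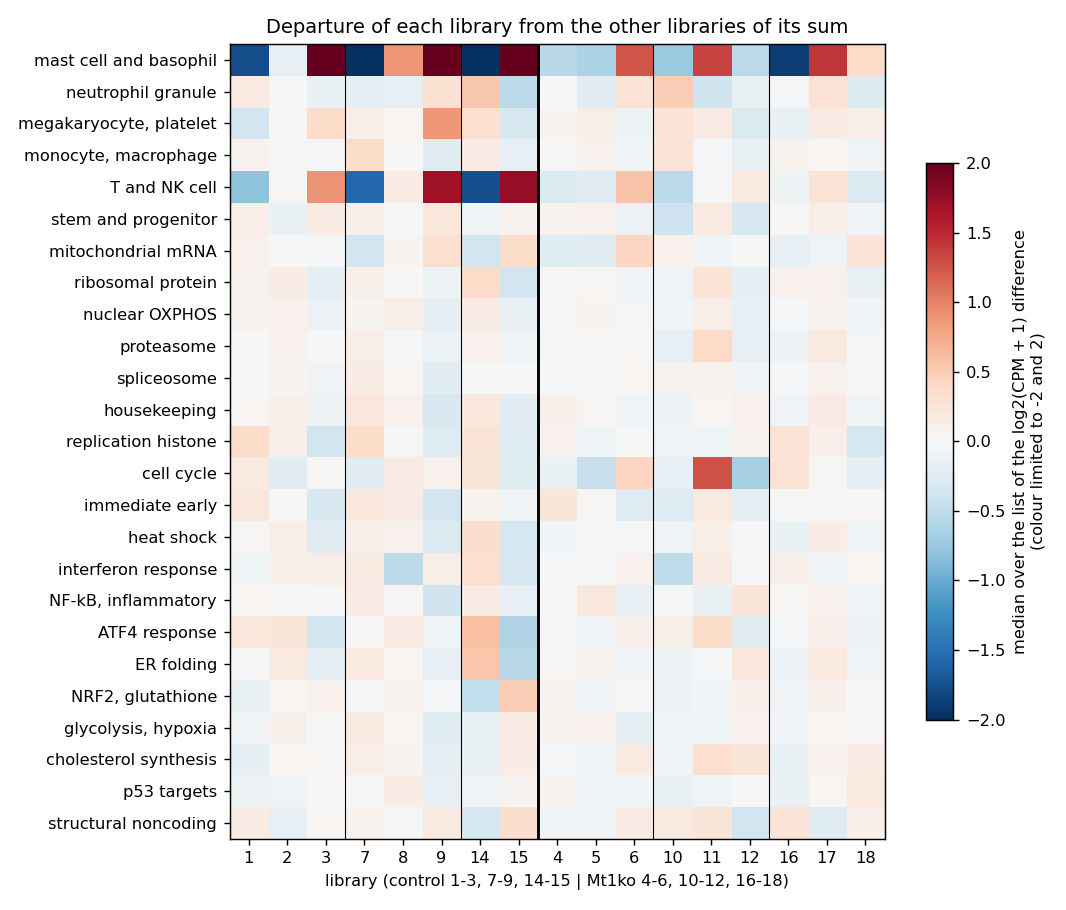
Each cell is the median, over the genes of 1 list, of the difference in log2(CPM + 1) between a library and the other libraries of its sum, with colours limited to -2 and 2. The mast cell and basophil list has the deepest colours, and the T and NK cell list, of 4 genes, 2 of which follow Cpa3, is the next deepest. The cell cycle list departs in library 11.

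Gene copies were the other class of genes that varied within sums. In the class sharing at least 50% of their sequence, 62 of 365 genes had an SD of 1 or more, which is 17.0%, against 2.57% of 4516 genes that share under 1%. The mitochondrial gene for a subunit of complex I, mt-Nd3, and its nuclear copy on chromosome 1, Gm28438, are such a pair. In GRCm38, mt-Nd3 lies on the forward strand of the mitochondrial genome at chrM:9459-9806, and Gm28438, annotated as an unprocessed pseudogene, on the reverse strand at chr1:24612775-24613119. The first 120 bases of each follow, 5′ to 3′ as given by GENCODE vM21, to show how little tells them apart, with capitals for the 1 base at which they differ over all 345 compared bases. That difference is T3C, with the mt-Nd3 base first and positions counted from 1 at the 5′ end.
mt-Nd3: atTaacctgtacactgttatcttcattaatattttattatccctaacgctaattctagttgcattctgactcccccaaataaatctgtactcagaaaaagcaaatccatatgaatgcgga
Gm28438: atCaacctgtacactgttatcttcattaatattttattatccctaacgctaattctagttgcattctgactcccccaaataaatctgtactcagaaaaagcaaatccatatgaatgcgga

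How the counts were divided between the members of that pair differed from library to library. The assignment of single reads was not tested. In libraries 8, 9 and 11 mt-Nd3 was at 0 and Gm28438 at 59.9, 38.4 and 70.0 CPM. In libraries 2, 4, 5, 10, 12, 14 and 16 Gm28438 was at 0 and mt-Nd3 at 53.5 to 80.7 CPM. Added together they ranged over 38.4 to 88.8 CPM in all 17 libraries. The SD within sums was 2.03 for mt-Nd3 and 2.65 for Gm28438, and 0.25 for their sum.

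Other mitochondrial genes with a copy also had a smaller SD once added to it. The gene mt-Co3, for a subunit of complex IV, was at 245.9 CPM in library 7, 112.5 in library 5 and 34.5 in library 18, and at 0.111 or less in the other 14. Its copy Gm28437 was at 36.0 CPM in library 7 and at 359.9 in library 5, and at 420.3 to 774.1 elsewhere. The SD within sums was 2.84 for mt-Co3 and 0.21 for the pair together. For mt-Atp6, a subunit of the ATP synthase, with Gm10925, it went from 3.67 to 0.14, and for mt-Nd4l with Gm10222 from 2.17 to 0.19. Alone, the copies had SDs of 0.92 for Gm28437, 0.21 for Gm10925 and 0.44 for Gm10222. Gm10925 had a mean of 1549 CPM, against 102.4 for mt-Atp6. The other 8 of the 12 mitochondrially encoded messenger RNAs measured had SDs within sums of 0.18 to 0.26. Nuclear pairs had smaller SDs when added as well. The SD of Gm12918 went from 2.65 to 0.13 once added to Rpl13, a ribosomal protein gene, and that of the histone gene H2ac19 from 2.55 to 0.40 with H2ac18. Alone, Rpl13 had an SD of 0.15 and H2ac18 one of 0.54. Of 61 genes with an SD of 1 or more and a listed partner, 49 fell to less than 50% of their SD when added to it, and the median over the 61 went from 1.41 to 0.29. Adding a larger partner with a small SD lowers the SD by arithmetic, so the fall alone does not show that counts moved.

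A library can also lose a gene that its mates hold. A gene under 1 CPM in a library and at a mean of 10 CPM or more in the other libraries of its sum was found 381 times, 284 of them in sum 10-12, with 97 in library 10, 37 in library 11 and 150 in library 12. The 284 were 269 genes, of which 15 were missing from more than 1 of the 3 libraries. In 196 of the 284 the gene shared under 10% of its sequence with any other. Of all 8118 genes with such a value, 4516 share under 1% and 2351 share 1% to 10%. These losses sat at low levels, with 259 of the 284 in genes of 10 to 30 CPM and none above 300 CPM. Since 1 CPM is 27.1 to 38.6 counts at these depths, 0 counts in a library allow up to 0.0776 to 0.111 CPM, for counting error only.

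Mki67, a nuclear protein of dividing cells, is an example. It had 0 counts in libraries 10 and 12 and was at 57.5 CPM in library 11. Elsewhere it was at 92.5, 58.1 and 64.0 CPM in 1 to 3, at 4.97, 48.8 and 22.1 in 7 to 9, and at 139.9 and 60.3 in 14 and 15. In the other Mt1ko sums it was at 67.6, 54.0 and 106.1 CPM in 4 to 6 and at 48.6, 44.2 and 33.0 in 16 to 18. Library 11 lay among the libraries of the other sums, and libraries 10 and 12 lay below all of them. The SD within sums was 1.63, or 0.84 without sum 10-12, and the sums did not pass the test (edgeR adjusted p = 0.821).

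Other losses in sum 10-12 hit genes of many functions. Nqo1, a quinone reductase, had 0 counts in library 10 and was at 67.6 and 26.2 CPM in libraries 11 and 12. Atp8b2, a phospholipid flippase, had 1 count in library 10, and was at 35.0 and 33.8 CPM in the other libraries. Cenpe, a kinesin of the centromere, had 0 counts in library 12 and was at 11.1 and 40.3 CPM in 10 and 11. H4c8, a histone gene, also had 0 in library 12, with 12.98 and 31.98 CPM in its mates. Fdps, an enzyme of sterol synthesis, was at 5.82, 52.9 and 0.567 CPM in libraries 10 to 12. In Cd48, a surface protein of most blood cells, library 12 was instead the high one, at 0.965, 0.24 and 15.3 CPM. Of the 14 cell cycle genes measured, 1 passed the test among sums, Dnmt1 (edgeR adjusted p = 0.000713), where 10.1% of all 8197 genes passed. The list had a median SD within sums of 0.53, and departed by 1.28 in library 11 and by -0.66 in library 12. Outside sum 10-12 there were 97 losses, 48 of them in genes that share at least 50% of their sequence, and library 14 held 26 of the 97.

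At the other end, 1013 of 17933 genes (5.65%) differed among the 6 sums beyond the spread of their libraries, by the edgeR quasi-likelihood test at a Benjamini-Hochberg adjusted p under 0.05, and 831 of the 8197 (10.1%) did. The share rose from 3.56% at 10 to 30 CPM to 59.5% at 1000 CPM or more. Among the 3 control sums, 307 genes (1.71%) differed, 303 of the 8197 (3.7%) among them, and among the 3 Mt1ko sums 1380 (7.7%), with 975 of the 8197 (11.9%). Without sum 10-12 the test called 864 genes among the other 5 sums (4.88%), 814 of the 8197 (9.93%) among them, of which 516 were also called with all 6. Leaving out sum 10-12 also raised the calls among the control sums to 1024 (5.79%), where 1 estimate of spread serves all sums, and left 0 (0.0%) between Mt1ko sums 4-6 and 16-18, with 981 at an unadjusted p under 0.05. The second index sequence of the libraries is the same in 1 to 8, in 9 to 16 and in 17 and 18, which splits sums 7-9 and 16-18, and with it as a covariate 500 genes were called among the 6 sums. Leaving out single libraries gave 733 to 1621 calls, with 1621 without library 12 and 1541 without library 10.

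Genes that varied almost only between sums were taken as those called among the 6 sums with at least 75% of their variance among sums and an SD among sums of 0.5 or more. There were 314 (3.83%), with a median SD of 0.27 within and 0.70 among sums, and since the test chose them these values are a description. The difference between control and Mt1ko took 3.24% of their sum of squares among sums at the median. The sum farthest from the mean of the others was 10-12, a Mt1ko sum, in 274, 7-9, a control sum, in 39, and 16-18 in 1. All 6 libraries of these sums lay below all other 11 in 203 of the 314 and above in 17, against 601 (7.33%) and 45 (0.549%) of all 8197. The median gene of sum 10-12 lay 0.45 below the other sums on the log2 scale, and 0.17 below under TMM scaling. Scaled by TMM factors the counts were 186 and 19, against 386 and 92 of all genes. Relative to counts outside the mitochondrial genes they were 182 and 18, against 327 and 137.

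**Figure D4:**
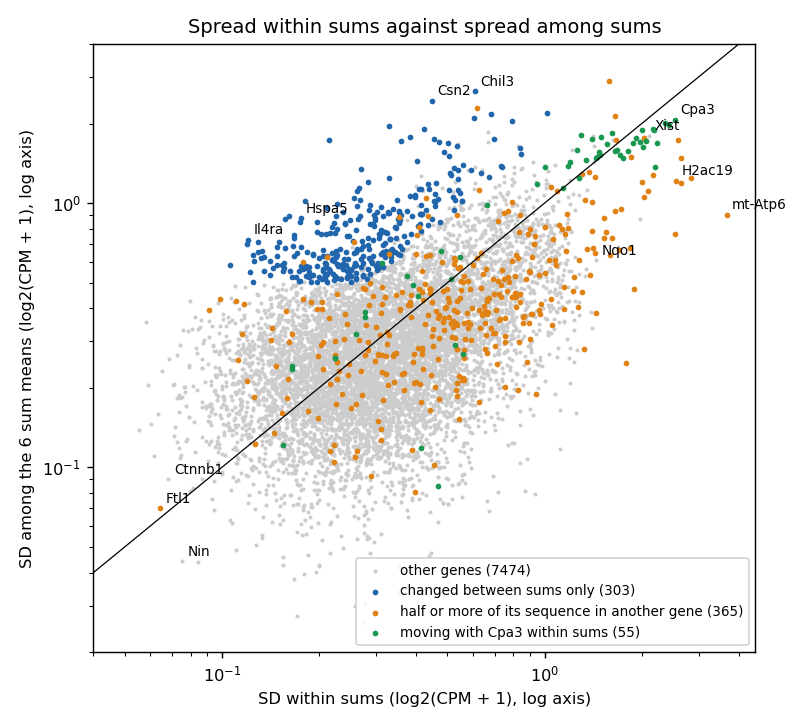
Each point is 1 of the 8197 genes, with the SD within sums on the horizontal and the SD among the 6 sum means on the vertical axis, both in log2(CPM + 1) on log axes. The black line marks equal SDs. Most genes that follow Cpa3 (green) sit at the upper right, genes with shared sequence (orange) spread to the right, and the genes that varied almost only between sums (blue) lie at the upper left of the cloud.

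Il4ra, the receptor chain for interleukins 4 and 13, was at 930.0, 986.2 and 1027 CPM in libraries 1 to 3, at 382.4, 339.8 and 409.2 in 7 to 9, and at 812.2 and 861.0 in 14 and 15. It was at 825.1, 790.4 and 849.6 CPM in 4 to 6, at 340.2, 275.1 and 292.7 in 10 to 12, and at 795.4, 897.4 and 1000.4 in 16 to 18. All 6 libraries of sums 7-9 and 10-12 were below the other 11, and no library strayed from its mates. The SD was 0.12 within and 0.73 among sums, with 97.4% of the variance among sums (edgeR adjusted p = 1.24e-06). Msr1, a scavenger receptor of macrophages, had SDs of 0.12 and 0.70 (adjusted p = 1.82e-06). Adgre5, an adhesion receptor of leukocytes, went the other way (edgeR adjusted p = 1.82e-06). It was at 153.0 to 157.4 CPM in sum 7-9 and at 108.8 to 140.5 in sum 10-12, against 44.7 to 75.5 in the other 11 libraries.

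Chil3, a chitinase-like protein of neutrophils and alternatively activated macrophages, had a wider gap. It was at 1802, 1669 and 1567 CPM in libraries 1 to 3, at 2257 and 1289 in 14 and 15, at 1859, 1661 and 2169 in 4 to 6 and at 1536, 1632 and 1366 in 16 to 18. In sum 7-9 it was at 23.3, 30.2 and 117.4 CPM and in sum 10-12 at 70.3, 57.1 and 33.1. The SD was 0.61 within and 2.65 among sums (edgeR adjusted p = 2.12e-06). Csn2, a milk casein, had 0 counts in all 6 libraries of those sums and 5.33 to 47.8 CPM in the other 11 (adjusted p = 2.12e-06). Mrc1, the mannose receptor of macrophages, was at 4.46 to 20.2 CPM in the 6 and at 70.9 to 351.0 in the 11 (edgeR adjusted p = 9.1e-06). The lowest of the 11 was library 15, whose mate was at 264.8.

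Over all 8197 genes, 831 (10.1%) passed the test, 529 of them lower and 227 higher in both sum 7-9 and sum 10-12. Of 25 listed neutrophil granule genes, Chil3 among them, 10 were measured and 6 passed the test, all 6 lower in sums 7-9 and 10-12 under all 3 scalings. Their medians over the list were 0.57 for the SD within and 1.52 for the SD among sums, against 0.32 and 0.28 for all genes. Elane, neutrophil elastase, was at 23.8 to 117.6 CPM in 11 libraries and at 0 to 1.85 CPM in 5 of the 6, but at 21.98 in library 9 (edgeR adjusted p = 0.0148). Cd177, a neutrophil surface protein, had SDs of 0.33 within and 1.97 among sums (adjusted p = 0.00175).

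All 22 listed chaperones and folding factors of the endoplasmic reticulum were measured and 20 passed the test, all 20 lower in sums 7-9 and 10-12 under all 3 scalings. Of all 8197 genes, 10.1% passed, and of those at 1000 CPM or more 59.5% did. Without sum 10-12 all 22 passed, against 9.93% of all 8197. The medians were 0.21 for the SD within and 0.68 for the SD among sums, with 88.7% of the variance among sums. Hspa5, the chaperone BiP, was at 2037, 2217 and 1859 CPM in libraries 1 to 3, at 607.0, 556.0 and 601.0 in 7 to 9, and at 2518 and 1573 in 14 and 15. It was at 1984, 2075 and 1993 CPM in 4 to 6, at 598.8, 599.3 and 675.3 in 10 to 12, and at 1644, 2003 and 1734 in 16 to 18 (edgeR adjusted p = 1.82e-06). The groups did not overlap. Hsp90b1, another lumenal chaperone, had SDs of 0.17 and 0.74 (adjusted p = 5.08e-06), and Pdia4, a disulfide isomerase, SDs of 0.27 and 1.14 (adjusted p = 2.12e-06).

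Other lists divided. Of 16 monocyte and macrophage genes 10 passed, 6 of them lower and 4 higher in both sums. Lyz2 was among the higher, at 5142 to 6387 CPM in sum 7-9 and 3561 to 4223 in sum 10-12, against 2139 to 3657 in the others (edgeR adjusted p = 1.05e-05). Of 25 genes for glutathione and the response to oxidants 10 passed, 9 higher and 1 lower. Sqstm1, an autophagy receptor, had the smallest adjusted p of these (5.06e-05, edgeR). Of 21 genes of the amino acid response 9 passed, 8 lower and 1 higher, with Slc7a5, an amino acid transporter, at SDs of 0.54 and 1.34 (edgeR adjusted p = 0.000121). Of 50 ribosomal protein genes 23 passed, all lower in both sums, or 22 of the 23 under either other scaling. Of all 8197 genes, 10.1% passed, with 3.56% from 10 to 30 CPM and 31.3% from 300 to 1000 CPM. The lists in this paragraph were not set against genes of their own level. The 34 spliceosome genes, at median SDs of 0.21 within and 0.19 among sums, and the 34 nuclear genes of oxidative phosphorylation, at 0.32 and 0.25, had smaller median SDs among sums than within them. The 10 replication histone genes, at 0.51 and 0.29, had a median share of variance among sums of 0.

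Without sum 10-12, the same rule gave 178 genes, and 117 of them were among the 314. Sum 7-9 was the farthest of the 5 in 176, with 141 lower and 37 higher there. Library 15 lay on the side of sum 7-9 relative to its mate 14 in 147 of the 178, by a median fraction of 0.274 of the distance. For Hspa5, Chil3 and Mrc1 the values of libraries 14 and 15 above show that side. The share of all genes with library 15 on that side was not computed, so the count describes the chosen genes only.

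Genes with the least spread lay level in all 17 libraries. Ctnnb1, beta-catenin, was at 311.3 to 403.3 CPM, with SDs of 0.07 within and 0.09 among sums. Nin, a centrosomal protein, was at 455.8 to 545.8 CPM, with SDs of 0.08 and 0.04. Ftl1, the ferritin light chain, was at 6337 to 7695 CPM, with SDs of 0.06 and 0.07. They were chosen for a small spread, so these values are a description.

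**Figure D5:**
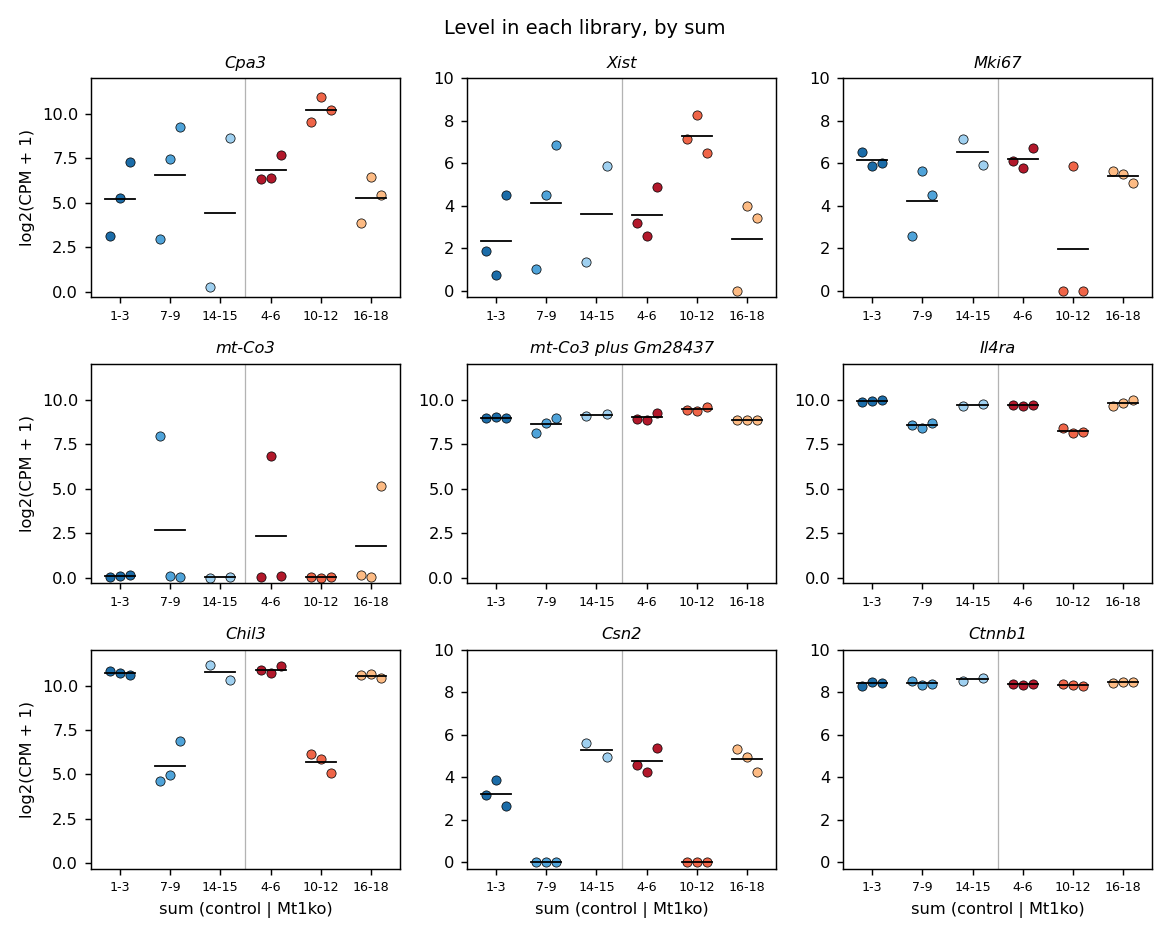
Each point is 1 library and each short line the mean of its sum, in log2(CPM + 1), with control sums left and Mt1ko sums right of the grey line. Cpa3 and Xist scatter within most sums, Mki67 within sum 10-12, and mt-Co3 alone but not with its copy. Il4ra, Chil3 and Csn2 differ between sums, with 7-9 and 10-12 low, and Ctnnb1 is level.

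The genes named in the genotypes lay between these extremes. For Mt1 the SD was 0.51 within and 1.28 among sums (edgeR adjusted p = 0.000274), and control against Mt1ko took 89.8% of its sum of squares among sums. Mt2, the neighbouring metallothionein, was at 22.4 CPM in library 10 and at 52.7 to 125.0 in the other 16, with SDs of 0.36 and 0.49 (adjusted p = 0.185). Npm1, which encodes nucleophosmin, was at 197.5 to 330.7 CPM, with SDs of 0.12 and 0.18 (edgeR adjusted p = 0.308). Dnmt3a, a DNA methyltransferase, had a mean of 4.21 CPM and was below the level required.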

How the data were processed

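Total RNA of bone marrow was isolated with a micro-scale column kit and DNase, and libraries were made with a stranded low-input total RNA kit, per the labels' protocols. Trimmomatic 0.35 and RSEM 1.3.3 with GRCm38 (mm10) stand in the submitters' processing notes; no label names the aligner or the strand setting. Whole-number gene counts were deposited by the authors for 17 libraries and for 6 sums, and each sum equalled its libraries in every gene, with 0 genes differing. Libraries held 27124722 to 38645072 counts.

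CPM are relative to all counts of a library. SDs are of log2(CPM + 1), within sums from the pooled mean square and among sums from the 6 means. Shares of variance come from a one-way layout, with negative components set to 0. Differences among sums were tested with edgeR 4.0.16 (filterByExpr, TMM, quasi-likelihood, 1 fit over 17 libraries, Benjamini-Hochberg) in R 4.3.3. DESeq2 1.42.0 and limma 3.58.1 served as alternatives. The scripts were tested on simulated data.

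Shared sequence is the percent of a gene's 31-base words that occur in another gene of GENCODE vM21, to which 76 of the 8197 genes could not be matched. Members and lists were chosen with earlier results of these data known. The rule for named genes, which leaves out predicted loci, took the 15 with the largest SD within sums, with all sums and without 10-12, the 15 with the largest share among sums of those called with an SD among sums of 0.5 or more, and 10 by the same rule without 10-12. It added the 10 with the least spread, the 10 most often under 1 CPM, up to 4 of each list, and Mt1, Mt2, Dnmt3a and Npm1. Other genes, among them gene copies and examples of losses, were chosen after their values were seen. Alternatives were other pseudocounts, minimum levels, scalings, tools, thresholds, a covariate for the second index sequence, and leaving out sum 10-12 or each library.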

Additional observations from a re-analysis of the deposited data

Results flagged for a closer look

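Dixon's ratio was examined in 84 sets of 8 control or 9 Mt1ko libraries, 1 for each condition and each gene or library measure. In 7 sets, 1 library lay far from the rest of its condition. Chance alone flags about 1 in 20 where genes are not chosen by their values. Some of these genes were chosen after their values were seen, so the 7 are a description and cannot be set against that rate. Mt1 was at 326.2 CPM in the library labelled Mt1ko 6 and at 41.8 to 87.2 in the other 8. Mt2 was at 22.4 CPM in Mt1ko library 10 and at 52.7 to 85.4 in the other 8. The mitochondrial gene mt-Co3 was at 245.9 CPM in control library 7 and at 0 to 0.0903 in the other 7, while its copy Gm28437 was low in that library. Ngp, a neutrophil granule protein, was at 8.24 CPM in Mt1ko library 4 and at 0 to 0.185 in the other 8. Cenpe was at 0.0 CPM in Mt1ko library 12, against 6.56 to 40.3, and H4c8 at 0.0 in the same library, against 6.08 to 32.0. Tmem38b, a cation channel of the endoplasmic reticulum, was at 288.2 CPM in control library 2 and at 45.4 to 92.4 in the other 7.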

How the results depend on the processing

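No paired analysis was possible because control and Mt1ko libraries share no replicate number. The 262 genes with an SD within sums of 1 or more became 511 with a pseudocount of 0.1 CPM, 47 with 5 CPM, 1073 at a minimum mean of 1 CPM, 28 at 50 CPM, and 55 without sum 10-12. The 8858 departures of 2-fold or more became 5703 with a pseudocount of 5 CPM, 29440 at a minimum of 1 CPM, 1348 at 50 CPM and 2572 without sum 10-12. The median SD within sums was 0.474 at a minimum of 1 CPM, the median SD among sums was 0.1737 without sum 10-12, and 1734 genes had more than 50% of their variance among sums at a minimum of 50 CPM. The difference in spread between control and Mt1ko sums, -0.0777, turned to 0.0449 without sum 10-12. Genes called among the 6 sums, 1013 by edgeR, were 524 at an adjusted p under 0.01, 2228 with no filter on low counts, 500 with the second index sequence as covariate, 2575 by limma and 2487 by DESeq2. Among control sums the 307 became 157 at 0.01, 730 with no filter, 1024 without sum 10-12 and 1047 by DESeq2. Among Mt1ko sums the 1380 became 596 at 0.01, 2089 at 0.10, 2108 with no filter, 341 with the second index, 0 without sum 10-12, 3232 by limma and 2359 by DESeq2. Their causes were not tested, beyond what fewer libraries or genes bring by construction.

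Leaving out each library in turn gave 129 (without 12) to 298 (without 18) genes with an SD within sums of 1 or more, and 170 and 158 without 10 and 11. It gave 7302 to 9213 departures, median SDs of 0.2731 to 0.3336 within and 0.2812 to 0.2992 among sums, 2503 to 3203 genes above 50%, and -0.1106 to -0.0344 for control against Mt1ko. Calls ranged from 733 to 1621 among the 6 sums (1621 without 12, 1541 without 10), from 158 to 500 among control sums (158 without 8, 500 without 12, and 183 to 204 without 9, 1, 2 or 7), and from 957 to 2051 among Mt1ko sums. Under TMM scaling, scaling outside mitochondrial genes and without sum 10-12, the SD within sums of 157 of 157 named genes moved by less than that SD, and so did the SD among sums of 156, 150 and 130 of them. An SD within sums cannot fall by more than itself, so the 157 could fail only by a rise of that size and say little. Depth limits little at these levels, where counting error gives a median SD of 0.04.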

Other observations

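Traces of other cell types appeared in single libraries, below the level required for the comparison. Ighm, the heavy chain of IgM, was at 10.6 CPM in library 3, 6.68 in library 5, 9.19 in library 9, 3.39 in library 8 and 9.86 in library 17, and at 0.36 or less in the others. Igkc, the kappa light chain, was at 5.24, 7.08, 7.90 and 5.01 CPM in libraries 3, 5, 9 and 17 and at 0 in the others, while Ms4a1 and Pax5, which mark B cells, were at 0 in all 17. Library 9 held haemoglobin transcripts, with Hba-a1 at 37.2 and Hbb-bs at 49.4 CPM, and Mpo, myeloperoxidase of granulocyte precursors, at 21.7 CPM.

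Tmem38b took high values in 3 libraries of different sums. It was at 288.2 CPM in library 2, 312.8 in library 5 and 195.1 in library 11, and at 25.9 to 92.4 CPM in the other 14.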
